A study of Homo sapiens with 8 samples.

Results

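The Notch genes described here are 10 members of the Notch pathway in Panc-1, an established line of human pancreatic duct carcinoma cells: the ligands *DLL1*, *JAG1* and *JAG2*, the receptors *NOTCH1*, *NOTCH2* and *NOTCH3*, the nuclear factors *RBPJ* and *MAML1*, and the target genes *HES1* and *HEY1*. They were taken by name from a table of normalized read counts of 13307 genes, and all 10 were present. The set was selected on measured values, in that *DLL1* was among the genes that fell most after depletion of PHF13 in TGFβ-treated cells, so values of that comparison are given below as a description with no p-value, and counts of calls in it are not read as tests. Cells of the groups siControl and siPHF13 were transfected with a non-targeting siRNA or with siRNAs against PHF13, a chromatin reader of trimethylated H3K4, for which the methods list 2 duplexes without saying whether they were combined. The groups siControl + TGFβ and siPHF13 + TGFβ also received TGFβ at 10 ng/ml from the next day for 48 h. Each group held 2 libraries of polyadenylated RNA, every group carried an siRNA, and no library of untransfected cells was analysed.

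Notch receptors are cut by furin on their way to the cell surface, bind ligands of the Delta or Jagged families on a neighbouring cell, and are then cut by ADAM proteases and γ-secretase. The released intracellular part enters the nucleus and binds the DNA-binding protein RBPJ together with a Mastermind coactivator such as MAML1, which switches on repressors of the HES and HEY families. In the pancreas the pathway is known for holding progenitor cells undifferentiated and for being active again in duct carcinoma, and crosstalk with TGFβ is known from epithelial-mesenchymal transition (EMT).

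Between 39196214 and 46700806 reads per library fell on the genes of the table. *PHF13* itself, the targeted gene, had between 1586 and 1804 normalized counts in the 4 siControl libraries and between 512.8 and 558.3 in the 4 siPHF13 libraries, with and without TGFβ. The duct keratins *KRT7*, *KRT8*, *KRT18* and *KRT19* were all present, with summed counts of 193266 to 203817 in siControl, 171523 to 194094 in siPHF13, 121557 to 127253 in siControl + TGFβ and 138184 to 149836 in siPHF13 + TGFβ. This lower keratin sum in both TGFβ groups moved with the TGFβ comparisons below, and its part in them was not tested. The 4 keratins did not move alike. *KRT7* had 413.6 to 425.9 in siControl and 426.9 to 439.9 in siControl + TGFβ. Without TGFβ, *KRT19* was higher in siPHF13 (38577.5 to 40977) than in siControl (32426 to 34318), where *KRT8* and *KRT18* were lower in siPHF13. None of 4 acinar and 3 fibroblast markers was in the table, and of 5 endothelial and 4 leukocyte markers 1 and 2 were, with sums of at most 32.6 and 179.3. Without TGFβ, *CD79A* had 0.95 to 2.7 normalized counts in siControl and 46.7 to 52.3 in siPHF13. In the same order *ITGAM* had 128 to 176.6 and 55.2 to 58.7, and *KDR* 7.59 to 11.7 and 22.9 to 32.6. With TGFβ, *CD79A* had 4.31 to 10.3 and 64.5 to 70.2, and *ITGAM* 100.8 to 134.8 and 61.5 to 75.1. The ranges of *KDR* with TGFβ, 18.3 to 20.6 and 8.66 to 29.1, overlapped. *PTPRC*, *CD3E*, *PECAM1*, *CDH5*, *VWF* and *TEK*, the other markers of these cell types, were not in the table, and the part of these differences in the results below was not tested. The squared difference between the 2 libraries of a group averaged 3.64 to 23.3 times the counting variance, so the error is given from the replicates. The sources do not say whether the 2 libraries came from separate cultures, and p-values then measure only the spread between these libraries, which may be technical.

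Depletion of PHF13 without TGFβ lowered *DLL1* and *HES1* and raised *NOTCH3*. These 3 of the 10 genes passed both thresholds, an adjusted p below 0.05 and a log2 fold change of more than 0.58 in either direction, beside 18.4% of all genes (10.4% lower and 7.95% higher). *NOTCH2*, lower, and *RBPJ*, higher, passed the threshold on p alone, which makes 5 of 10 beside 47.4% of all genes. Each count is over only 10 genes, and the share on p alone lies near that of all genes. *DLL1* was chosen for its fall after depletion with TGFβ, so a fall without TGFβ was likely beforehand. Without *DLL1*, only *HES1* and *NOTCH3* of 9 genes passed both thresholds, which also lies near the share of all genes. TGFβ in siControl cells raised *JAG1*, the only one of the 9 genes tested (*DLL1* left out) past both thresholds in limma (beside 4.79% of all genes, 3.27% higher and 1.52% lower), and *JAG2*, *NOTCH2* and *HES1* passed the threshold on p alone, 4 of 9 with *JAG1* beside 15.9%. The median log2 fold change of the 10 genes was -0.06 after depletion, against 0.00 over all 13307 genes. With TGFβ the middle value of the 9 genes tested was that of *NOTCH2*, 0.23, against a median of -0.01 over all genes. Both comparisons share the siControl libraries.

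**Figure D1:**
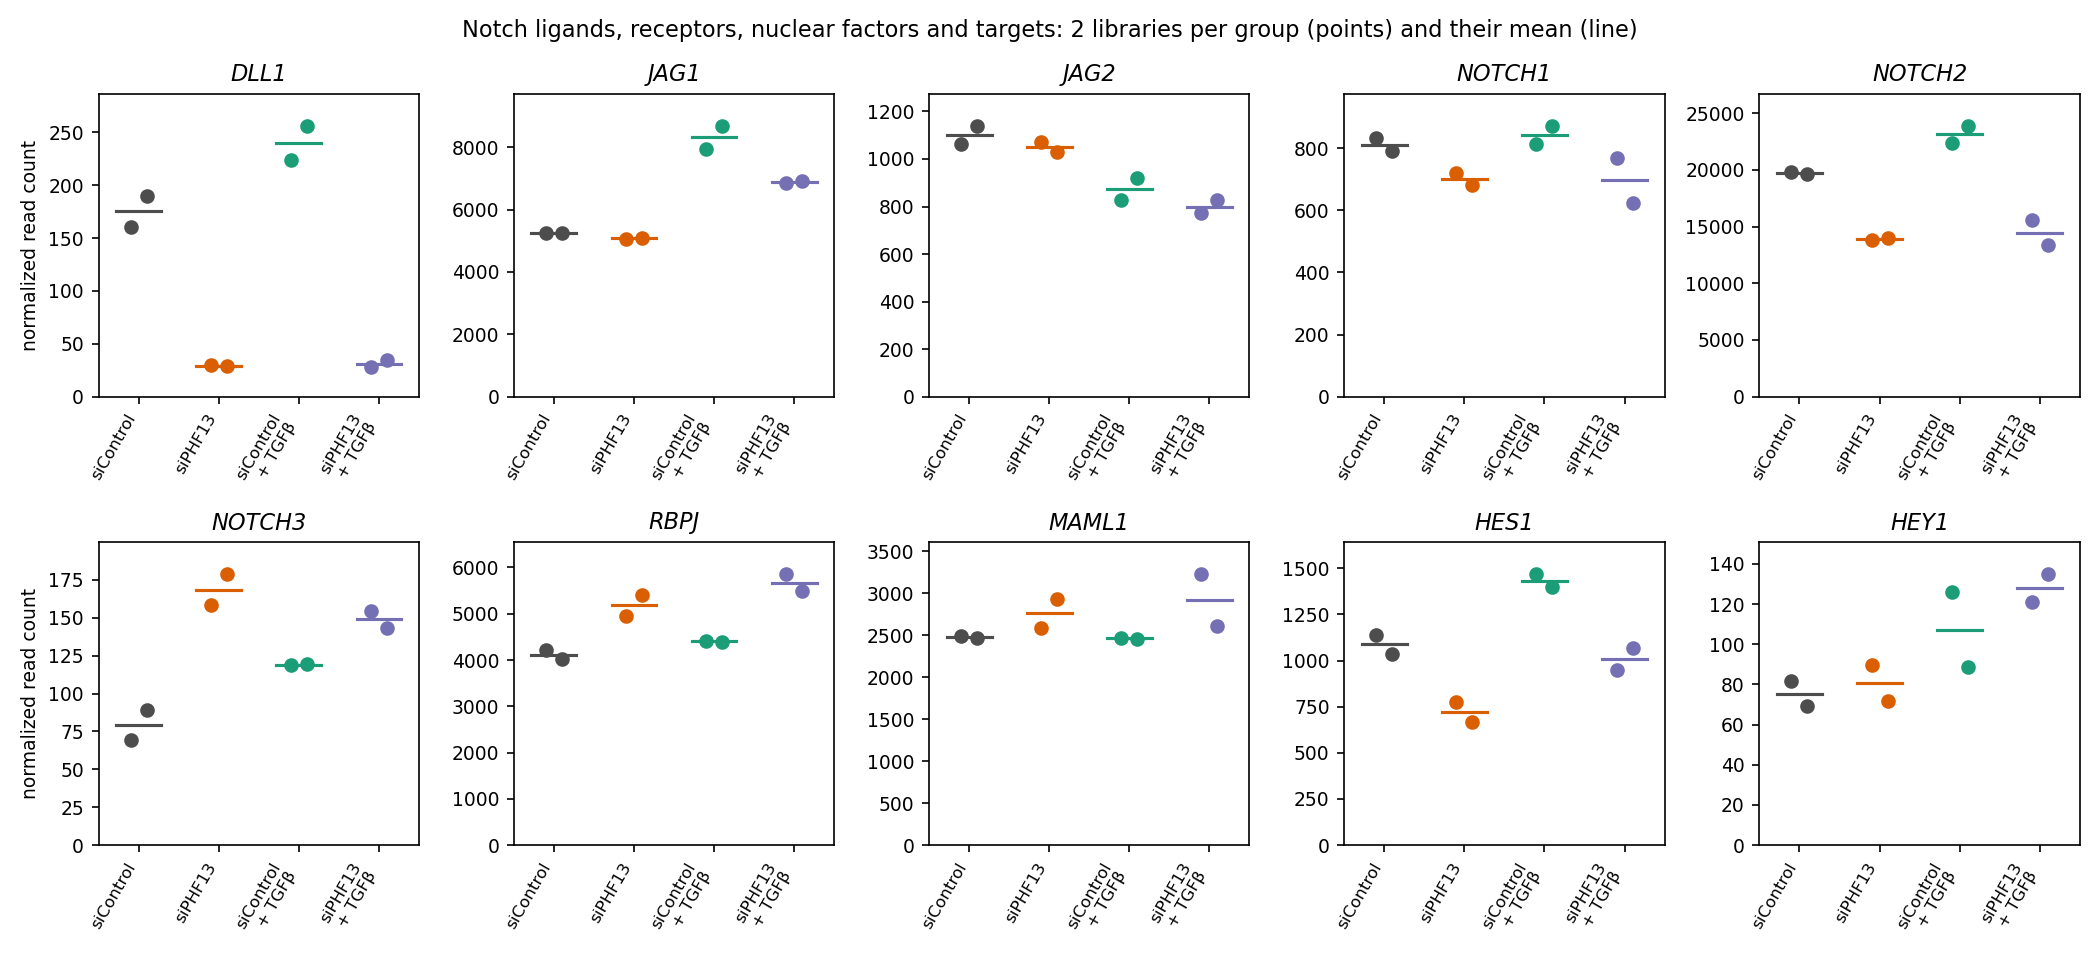
Normalized read counts (vertical axis, linear and from 0, a separate scale for each gene) of the 10 Notch genes in the 4 groups. Points are the 2 libraries of a group and the line is their mean. *DLL1* lies between 28.1 and 34.6 in all 4 siPHF13 libraries and between 160.3 and 256.1 in the siControl libraries, *JAG1* is highest in siControl + TGFβ and *NOTCH3* is lowest in siControl.

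*DLL1* encodes Delta-like 1, a transmembrane ligand presented to neighbouring cells, and lies on the minus strand of chromosome 6 of GRCh37 from 170591294 to 170615653. It had 160.3 and 190.1 normalized counts in siControl, 29.8 and 28.6 in siPHF13, 224.2 and 256.1 in siControl + TGFβ, and 28.1 and 34.6 in siPHF13 + TGFβ. The 4 depleted libraries thus lay together at a low level, whether or not TGFβ was given, and did not overlap the control libraries. Without TGFβ, *DLL1* fell by 2.54 on the log2 scale after depletion (standard error 0.25, limma with Benjamini-Hochberg adjustment over all genes, adjusted p = 2.34e-06), which left 0.172 of the control level. This fold change rests on libraries that the choice of the gene did not use. Its standard error and p, however, pool the spread of all 8 libraries, those of the choice included. A limma fit of only the libraries compared gave an adjusted p of 1.17e-06. *DLL1* was the gene at place 26 from the bottom of the 13307. With TGFβ the log2 fold change was -2.90, place 13 from the bottom, and this is the comparison it was chosen for. The log2 fold change with TGFβ was 0.45 in siControl cells and 0.09 in siPHF13 cells, both given without a test because they hold libraries of the choice, and the latter lay between -0.056 and 0.24 with 1 library left out. With any 1 library left out, the fall without TGFβ lay between -2.66 and -2.42. In bulk RNA, fewer cells that express a gene and less RNA per cell cannot be told apart. *DLL1* shares 370 bases (9.69%) of its annotated exons with *FAM120B* on the opposite strand, and the strand setting of the counting was not given in the sources used here. *FAM120B* had between 2402 and 3119 normalized counts, with a log2 fold change after depletion of -0.14 without TGFβ (adjusted p = 0.156 from limma).

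*JAG1* and *JAG2* encode the Jagged ligands, and neither passed a threshold after depletion without TGFβ. *JAG1* lies on the minus strand of chromosome 20 from 10618332 to 10654647. It had 5255 and 5262 normalized counts in siControl, 5064 and 5096 in siPHF13, 7960 and 8685 in siControl + TGFβ, and 6843 and 6927 in siPHF13 + TGFβ. Both TGFβ groups lay above both untreated groups without overlap, and the siPHF13 + TGFβ libraries lay between the untreated libraries and those of siControl + TGFβ. TGFβ raised *JAG1* by 0.66 on the log2 scale in siControl cells (standard error 0.06, adjusted p = 7.38e-06 from limma), a 1.58-fold increase. In siPHF13 cells it lay 0.44 higher with TGFβ (standard error 0.06, adjusted p = 0.000845 from limma), which passed the threshold on p and not that on the fold. The difference between these responses, the interaction, was -0.22 (standard error 0.09) and did not pass (adjusted p = 0.392 from limma). Depletion gave -0.05 (standard error 0.06) in untreated and -0.27 in TGFβ-treated cells on the log2 scale.

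*JAG2*, on the minus strand of chromosome 14 from 105607319 to 105635161, moved the other way with TGFβ. It had 1061 and 1139 normalized counts in siControl, 1072 and 1031 in siPHF13, 826.9 and 919.5 in siControl + TGFβ, and 772.9 and 825.8 in siPHF13 + TGFβ. All 4 TGFβ-treated libraries lay below all 4 untreated ones. The log2 fold change with TGFβ was -0.33 in siControl cells and -0.40 in siPHF13 cells (standard error 0.09 each, adjusted p = 0.0277 and 0.0368 from limma), past the threshold on p alone. Without siControl replicate 2 the former had an adjusted p of 0.238, and without siPHF13 replicate 1 the latter had 0.214 (limma). After depletion, *JAG2* had log2 fold changes of -0.06 (standard error 0.09) without and -0.13 with TGFβ. Of the annotated exon bases of *JAG2*, 7.33% also belong to a long noncoding RNA on the same strand, and 3.29% of those of *JAG1* to one on the opposite strand.

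Among the receptors, *NOTCH2* was the most abundant and was lower in every siPHF13 library than in every siControl library. It lies on the minus strand of chromosome 1 from 120454176 to 120643366 and had 19789 and 19611 normalized counts in siControl, 13846.5 and 14027 in siPHF13, 22391 and 23861.5 in siControl + TGFβ, and 15542 and 13383.5 in siPHF13 + TGFβ. Depletion without TGFβ gave -0.50 on the log2 scale (standard error 0.07, adjusted p = 5.8e-05 from limma), which left 0.707 of the control level and missed the fold threshold. With TGFβ it was -0.68, which left 0.624, and this value lay between -0.79 and -0.57 with 1 library left out. TGFβ gave 0.23 in siControl cells (adjusted p = 0.0385 from limma, but 0.226 without siControl replicate 2) and 0.05 in siPHF13 cells (adjusted p = 0.836 from limma). *NOTCH2NL*, the symbol in the table for near-identical partial copies of *NOTCH2* and looked up after the members' values had been seen, had 682.9 and 744.2 normalized counts in siControl and 349.1 and 411.3 in siPHF13. Its log2 fold change was -0.91 (standard error 0.17, adjusted p = 0.000577 from limma). Reads that match both could be split between them or lost, so the values of this pair are uncertain.

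*NOTCH3* rose after depletion, from the lowest level of the 3 receptors. It lies on the minus strand of chromosome 19 from 15269849 to 15311806, and had 69.2 and 89.2 normalized counts in siControl and 158.1 and 178.5 in siPHF13. With TGFβ it had 118.6 and 119.3 in siControl cells and 154.4 and 143.4 in siPHF13 cells. The siControl libraries without TGFβ were thus the lowest, and the depleted libraries lay above their controls in both settings. The rise without TGFβ was 1.09 on the log2 scale, 2.12-fold (standard error 0.21, adjusted p = 0.000708 from limma), and lay between 0.91 and 1.27 with 1 library left out. With TGFβ the log2 fold change after depletion was 0.32. TGFβ gave 0.59 in siControl cells (adjusted p = 0.071 from limma) and -0.17 in siPHF13 cells (adjusted p = 0.789), and the difference of -0.77 between them (standard error 0.29) did not pass (adjusted p = 0.385 from limma).

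*NOTCH1*, on the minus strand of chromosome 9 from 139388885 to 139440500, had 831.8 and 791.1 normalized counts in siControl, 721.1 and 679.7 in siPHF13, 814 and 871.2 in siControl + TGFβ, and 768.6 and 624.7 in siPHF13 + TGFβ. The depleted libraries were the lower ones in both settings, though the siPHF13 + TGFβ libraries differed from each other by more than their higher one did from the controls. Depletion gave a log2 fold change of -0.21 without TGFβ (standard error 0.11, adjusted p = 0.136 from limma) and -0.28 with TGFβ, and between -0.43 and -0.13 in the latter with 1 library left out. With TGFβ it was 0.05 in siControl cells and -0.01 in siPHF13 cells, with a standard error of 0.11 in each.

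*RBPJ*, the DNA-binding protein that all 4 Notch receptors use, lies on the plus strand of chromosome 4 from 26165077 to 26436753. It had 4207 and 4029 normalized counts in siControl, 4957 and 5403 in siPHF13, 4420.15 and 4392 in siControl + TGFβ, and 5848 and 5482 in siPHF13 + TGFβ. All 4 depleted libraries lay above all 4 control libraries. Without TGFβ the difference was 0.33 on the log2 scale (standard error 0.07, adjusted p = 0.00107 from limma), which passed the threshold on p and not that on the fold, and with TGFβ it was 0.36. *MAML1*, the Mastermind coactivator, on the plus strand of chromosome 5 from 179159823 to 179204284, had 2496 and 2471 normalized counts in siControl, 2591 and 2934 in siPHF13, 2467 and 2460.3 in siControl + TGFβ, and 3226 and 2617 in siPHF13 + TGFβ. Its depleted libraries were the higher ones but spread widely. Depletion gave 0.15 without TGFβ (standard error 0.09, adjusted p = 0.202 from limma) and 0.24 with TGFβ, and between 0.09 and 0.39 in the latter with 1 library left out. TGFβ gave log2 fold changes between -0.01 and 0.13 in these factors, none of them past a threshold in limma.

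*HES1*, the best known Notch target and a transcriptional repressor, fell after depletion. It lies on the plus strand of chromosome 3 from 193853937 to 193856521 and had 1139 and 1037 normalized counts in siControl, 774.8 and 664.9 in siPHF13, 1466 and 1396 in siControl + TGFβ, and 948.9 and 1066 in siPHF13 + TGFβ. Within each setting the depleted libraries lay below their controls, and the siPHF13 + TGFβ libraries overlapped the untreated siControl ones. The fall without TGFβ was -0.60 on the log2 scale (standard error 0.10, adjusted p = 0.000317 from limma), which left 0.661 of the control level. It lies close to the fold threshold and did not pass it without siControl replicate 1 (-0.53) or without siPHF13 replicate 2 (-0.49), while its adjusted p stayed at 0.00871 or below with any 1 library left out. With TGFβ the log2 fold change after depletion was -0.51. TGFβ gave 0.40 in siControl cells and 0.49 in siPHF13 cells (standard error 0.10 each, adjusted p = 0.0179 and 0.0177 from limma), past the threshold on p alone. The former had an adjusted p of 0.187 without siControl replicate 2, and the latter of 0.194 without siPHF13 replicate 2 (limma), and without siPHF13 replicate 1 the latter reached 0.60.

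The sequence before the start of *HES1* is shown because it holds the motif of RBPJ, the factor through which Notch acts on this gene. In the RefSeq promoter windows of GRCh38.p14, which run from 250 bases before to 50 after an annotated start, 8 of the 10 genes had at least 1 window, and *DLL1* and *HEY1* had none. The core motif TGGGAA was searched on both strands and was found in windows of 2 of the 8 genes, *HES1* and *RBPJ*, beside 24% of 35114 windows. The longer site CGTGGGAA, which contains the core, was found in 1 of the 8, *RBPJ*, beside 0.826%. The N box CACNAG, bound by HES proteins, was in windows of 6 (all but *JAG1* and *JAG2*), beside 38%, and the SMAD palindrome GTCTAGAC in 0, beside 0.202%. Some genes have several windows, so these shares are a description. The 150 bases before the *HES1* start (chr3:194135998-194136147, plus strand) are printed 5′ to 3′ with both core matches in capitals, 84 and 70 bases before the start. For *RBPJ*, the 150 bases before a start within the gene (chr4:26319596-26319745, plus strand) have the longer site, on the minus strand, and a core match, on the plus strand, in capitals.
HES1: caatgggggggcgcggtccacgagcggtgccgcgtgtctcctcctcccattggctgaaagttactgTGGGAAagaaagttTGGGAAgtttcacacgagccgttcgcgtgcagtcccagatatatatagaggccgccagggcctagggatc
RBPJ: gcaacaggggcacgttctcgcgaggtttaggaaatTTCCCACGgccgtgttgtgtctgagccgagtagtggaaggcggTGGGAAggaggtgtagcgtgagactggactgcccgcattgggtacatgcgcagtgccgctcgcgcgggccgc
A match says only that these letters are present, and no binding of RBPJ was measured in these libraries.

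*HEY1*, the other target, lies on the minus strand of chromosome 8 from 80674606 to 80680092 and had few reads. It had 81.6 and 69.4 normalized counts in siControl, 89.5 and 72 in siPHF13, 126.1 and 88.5 in siControl + TGFβ, and 120.9 and 134.7 in siPHF13 + TGFβ. The untreated groups overlapped, and the TGFβ-treated siPHF13 libraries were above the untreated ones. Depletion gave a log2 fold change of 0.09 without TGFβ (standard error 0.25, adjusted p = 0.784 from limma), and changed sign without siControl replicate 2 (-0.02) or without siPHF13 replicate 1 (-0.06). With TGFβ it was 0.27, and between 0.017 and 0.52 with 1 library left out. TGFβ gave 0.48 in siControl (between 0.23 and 0.74 with 1 library left out) and 0.66 in siPHF13 cells (standard error 0.25 each, adjusted p = 0.226 in both from limma), so a change was not detectable at this depth and spread. *HES1* and *HEY1* thus had log2 fold changes of opposite sign after depletion, and only that of *HES1* passed a threshold in limma; the difference between these genes was not tested.

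**Figure D2:**
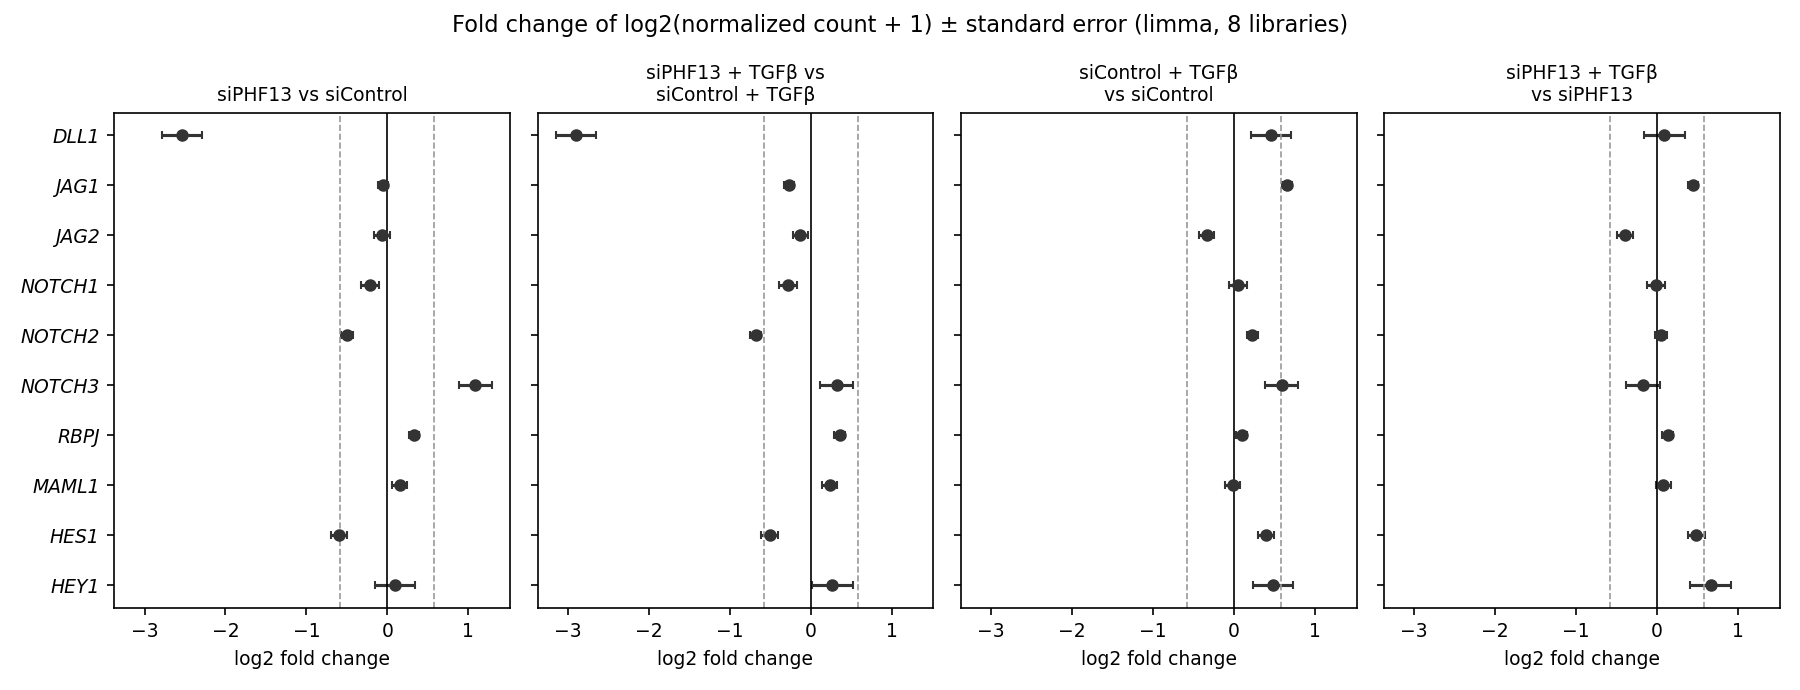
Log2 fold change of log2(normalized count + 1) (horizontal axis) of the 10 Notch genes in 4 comparisons, one panel each. Points are estimates from limma over all 8 libraries, bars are their standard errors, and dashed lines mark the fold threshold of 0.58 on each side. *DLL1* stands at -2.54 and -2.90 in the depletion panels, the other 9 genes lie between -0.68 and 1.09 in them.

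The response to TGFβ was then compared between siPHF13 and siControl cells. In siPHF13 cells, 0 of the 9 genes tested (*DLL1* left out) passed both thresholds, beside 1.35% of all genes, and 0 did with edgeR or DESeq2, while 4 had an unadjusted p under 0.05 in limma (*JAG1*, *JAG2*, *HES1* and *HEY1*). At an adjusted p alone 3 passed, beside 3.07%. For the interaction, 0 of the 9 passed with limma, edgeR or DESeq2, beside 0.308% of all genes, and 2 had an unadjusted p under 0.05 in limma (*JAG1* and *NOTCH3*). The share of all genes at that unadjusted threshold was not counted, so nothing is read from these 4 and 2 genes. In the comparison that the choice of *DLL1* used, siPHF13 + TGFβ against siControl + TGFβ, 2 of the 10 genes (*DLL1* and *NOTCH2*) lay past both thresholds, where 20.5% of all genes did, and nothing is read from that count.

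Levels between genes were compared per kb of the Ensembl canonical transcript. As means over the 8 libraries, *NOTCH2* had 1559 normalized counts per kb, *JAG1* 1075, *RBPJ* 897.6, *HES1* 674.1, *MAML1* 462.4, *JAG2* 165.6, *NOTCH1* 79.7, *HEY1* 44.5, *DLL1* 31.5 and *NOTCH3* 14.8. The ranges over the 8 libraries of neighbours in this order overlapped from *NOTCH2* down to *MAML1*, and again from *HEY1* down to *NOTCH3*. Those of *MAML1* and *JAG2*, of *JAG2* and *NOTCH1* and of *NOTCH1* and *HEY1* did not. In siControl cells *DLL1*, at 46.4 per kb, stood above *HEY1* at 34.3 and *NOTCH3* at 9.13. In siPHF13 cells, *DLL1* at 7.73 was below *HEY1* at 36.8 and *NOTCH3* at 19.4. Even in siControl cells the *DLL1* level per kb was far under the 885.3 of *JAG1*.

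Other genes of the pathway were read from a list of 65, written by role, of which 61 were in the table (*NEURL1*, *DTX1*, *HES5* and *HEY2* were not). Depletion without TGFβ raised 6 and lowered 6 of the 61 past both thresholds, 19.7% beside 18.4% of all genes, and their median log2 fold change was -0.01. All 5 further ligands had a log2 fold change above 0, as did 6638 of all 13307 genes. Their median was 0.40, and 1 of them was called, *DNER*, which was also the only one past the threshold on p in limma. The member ligands *DLL1* (-2.54), *JAG1* (-0.05) and *JAG2* (-0.06) lay below 0, the Jagged genes by less than their standard errors. A shift of the ligands was not tested. *NOTCH4*, the one further receptor, rose from 103.4 and 112.6 normalized counts in siControl to 234.7 and 255.5 in siPHF13 (1.17, standard error 0.21, adjusted p = 0.000401 from limma). Of 12 corepressors, 11 had a log2 fold change below 0, with a median of -0.24, where 6669 of all 13307 genes lay below 0. Past both thresholds were 16.7% of the corepressors beside 18.4% of all genes, and a shift of the class was not tested. The 2 that passed were *CTBP2*, which went from 5807 and 6067 to 3472 and 3271 normalized counts, and *TLE2* (-0.93), which lost its call without siPHF13 replicate 1 (-0.66, adjusted p = 0.192) or without either siControl library (adjusted p = 0.0881 and 0.146 from limma). None of 9 genes of receptor cleavage, 6 coactivators and 6 further targets passed both thresholds in limma, beside 18.4% of all genes. On p alone 3, 4 and 2 of them passed, beside 47.4% of all genes, and nothing is read from these counts. The 2 targets were *HES4* (0.33, adjusted p = 0.0326 from limma) and *NRARP*, a feedback inhibitor of Notch, with 847.9 and 912.7 normalized counts in siControl and 557 and 623.4 in siPHF13 (-0.58, adjusted p = 0.000983), both named after their values had been seen.

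**Figure D3:**
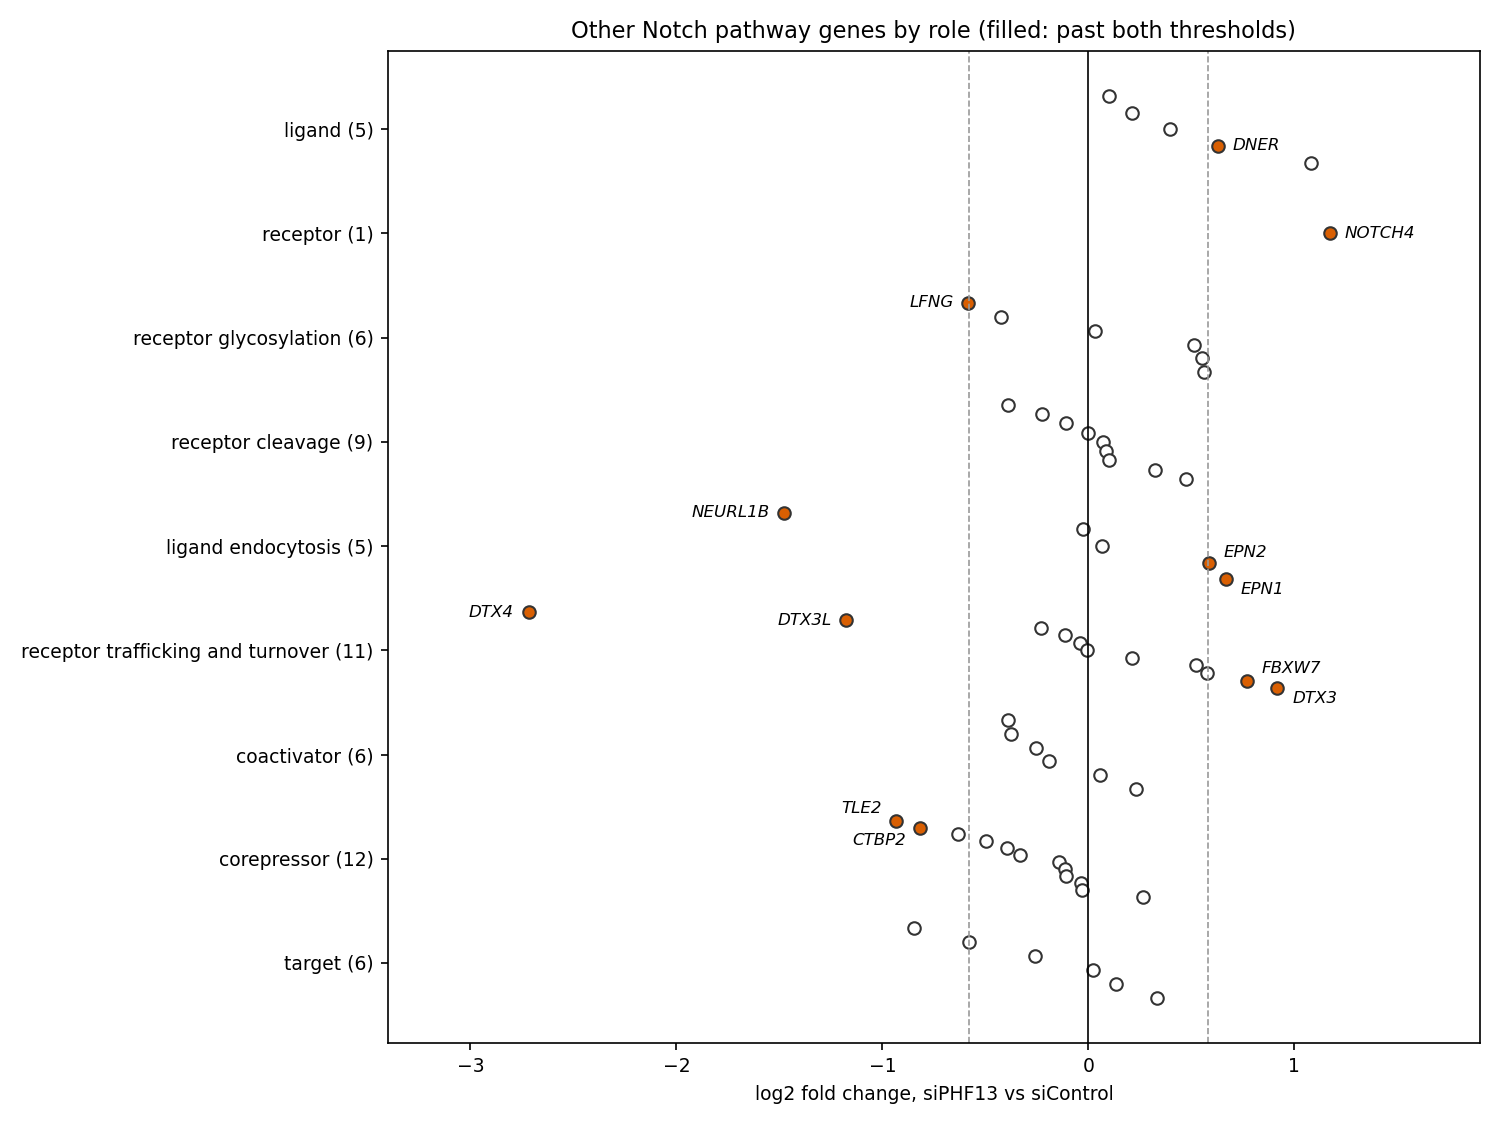
Log2 fold change of siPHF13 against siControl (horizontal axis) for 61 other Notch pathway genes, in rows by role with the number of genes in brackets. Filled points with names passed both thresholds, open points did not, and dashed lines mark the fold threshold of 0.58 on each side. *DTX4* (-2.72) lies farthest to the left, and 11 of the 12 corepressors lie left of 0, where 6669 of all 13307 genes lie.

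Of the 8 largest called changes in that list, *NOTCH4*, *TLE2* and *CTBP2* are given above and the other 5 follow. *DTX4*, a Deltex-type ubiquitin ligase that acts on Notch, had 77.8 and 70.3 normalized counts in siControl and 10.9 and 9.86 in siPHF13 (-2.72, standard error 0.43, adjusted p = 0.000149 from limma). *DTX3L*, of the same family, fell from 4730.01 and 4710.5 to 1919 and 2277 (-1.17), and *DTX3* rose from 935.2 and 1009 to 1800.3 and 1873 (0.92). The Deltex genes thus changed in both directions. *FBXW7*, which marks the Notch intracellular part for degradation, rose from 789.1 and 831.6 to 1314 and 1455 (0.77, adjusted p = 1.64e-05 from limma). *NEURL1B*, a ubiquitin ligase that acts on ligands, fell from 121.4 and 126.1 to 39.8 and 48.3 (-1.48, adjusted p = 0.00265 from limma). The epsins *EPN1* (0.67) and *EPN2* (0.59), which take part in ligand endocytosis, rose, and *LFNG* (-0.58), a Fringe that adds sugars to the receptor, fell. These 3 and *DNER* (0.63) passed both thresholds but were outside the 8 largest and are named after their values were seen. *EPN2* and *LFNG* lay close to the fold threshold. *DNER* had an adjusted p of 0.0361 from limma, and its siControl libraries differed (124.2 and 191 normalized counts).

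TGFβ in siControl cells changed 4 of the 61 genes, 6.56% beside 4.79% of all genes. *FURIN*, the protease that cuts Notch receptors during maturation, and also TGFβ precursors, rose from 4791 and 4665 to 11121.5 and 10329 normalized counts (1.18, standard error 0.07, adjusted p = 8.77e-08 from limma). *L3MBTL3*, a chromatin protein that binds RBPJ, rose from 399.3 and 439.7 to 674.9 and 641.8 (0.65). *DLL4*, another Delta ligand, fell from 319.6 and 318.1 to 144.5 and 200.6 (-0.90, standard error 0.16, adjusted p = 0.00159 from limma), and had 421.7 and 418.3 in siPHF13 and 371.4 and 416.8 in siPHF13 + TGFβ. Its values were thus lowest in siControl + TGFβ. *NEURL1B* (-1.12, adjusted p = 0.0367 from limma) lost its call without any 1 of the 4 libraries compared (adjusted p from 0.0691 to 0.212). In siPHF13 cells *FURIN* was the only gene of the 61 past both thresholds in limma (0.65, adjusted p = 8.74e-05), and without siPHF13_TGFb replicate 1 it missed the fold threshold (0.57). In siPHF13 + TGFβ against siControl + TGFβ, 9 of the 61 genes lay higher and 8 lower past both thresholds, 27.9% where 20.5% of all genes did, and nothing is read from that count.

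The pattern of *DLL1* over the 8 libraries was compared with that of the 11200 other genes whose mean reached 100 normalized counts, by the root mean square difference of log2 values centred on each gene's mean. The nearest were *CD69*, a lymphocyte activation antigen, at 0.24, *USP18*, a protease for the ubiquitin-like ISG15, at 0.28, *TSPAN18*, a tetraspanin, at 0.32, *CTSS*, the lysosomal protease cathepsin S, at 0.34, and *LMX1B*, a homeobox factor, at 0.38. The spread of *DLL1* itself on this scale was 1.37. In siControl *CD69* had 1358 and 1295 normalized counts, far above *DLL1*, and *LMX1B* had 179.3 and 199.1, close to it. None of the 5 is a gene of the Notch lists used here. *CD69* had 2523 and 2609 in siControl + TGFβ, the direction in which *DLL1* lay, while *USP18* had 356.6 and 335.2 in siControl and 317 and 294.2 in siControl + TGFβ. For the other members the nearest genes were *ADA* for *JAG1* (0.05), *SLC5A3* for *JAG2* (0.05), *FOXK1* for *NOTCH1* (0.03), *PLEKHG3* for *NOTCH2* (0.04), *LZTS3* for *NOTCH3* (0.13), *ST6GALNAC2* for *RBPJ* (0.03), *MED14* for *MAML1* (0.02), *TMEM41B* for *HES1* (0.09) and *PTPRU* for *HEY1* (0.13). No other member was the nearest gene of any member, but *HEY1*, with a mean of 97.8, was not among the candidates. Only the nearest of very many genes were looked up, so how the members vary together was not tested.

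**Figure D4:**
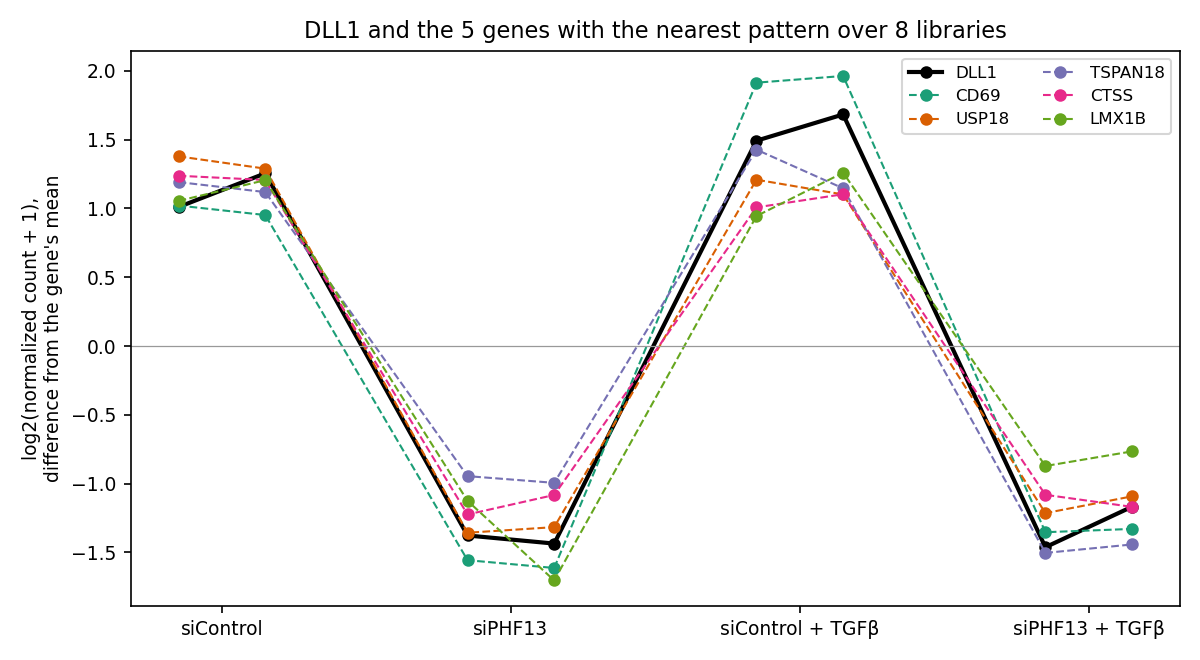
Log2(normalized count + 1) minus the gene's mean (vertical axis) of *DLL1* (black) and the 5 genes nearest to it in pattern, in the 2 libraries of each group (horizontal axis). Lines only join the points of a gene. All 6 genes lie above 0 in the siControl libraries and below 0 in the siPHF13 libraries, with and without TGFβ.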

How the data were processed

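Panc-1 mRNA was sequenced in 8 libraries, 2 for each of the 4 groups named in the sample labels. According to the methods and the submitters' processing notes, the authors trimmed paired-end reads with Trim Galore 0.4.1, mapped them with STAR 2.7.0 (build hg19), counted reads on exons with HTSeq 0.12.4 and normalized with DESeq2. The annotation release is not given in the sources used here. The deposited signal is a gene count divided by a size factor of its library. The authors' 3 tables of their own comparisons (fold changes and p-values) were not used.

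One limma fit (3.58.1, R 4.3.3) with a trended prior variance on log2(normalized count + 1) covered all 8 libraries. Adjustment of p-values followed Benjamini and Hochberg and covered 13307 genes. A call needed an adjusted p below 0.05 with a log2 fold change of more than 0.58 in either direction, as in the study's methods. Fold changes on this scale understate those of low genes. Every gene passed the filter on low values (10 normalized counts in 2 or more libraries). Division by the worth of 1 read gave whole numbers for 100% of values in every library (tolerance 1e-06). These reads gave the depths and entered edgeR 4.0.16 and DESeq2 1.42.0 as alternatives, although in siPHF13 replicate 1, where 1 read was worth 0.995, whole reads are hard to tell from rounding. The fit was tested on simulated data with the same spread beyond counting for every gene and group. Changes were planted only in the siPHF13 group. The simulation thus does not cover the TGFβ comparisons, the interaction or the unequal spread between replicates seen here. Gene positions came from a GENCODE annotation of GRCh37, the assembly of hg19, and promoter sequences from RefSeq on GRCh38.p14.

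The named genes are the 10 members, genes of the wider list past both thresholds (up to 8 per comparison), *PHF13*, and the genes nearest in pattern (5 for *DLL1*, 1 for each other member). The members and lists were chosen with earlier results of these data known.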

Additional observations from a re-analysis of the deposited data

Results flagged for a closer look

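The response of *FURIN* to TGFβ differed between siPHF13 and siControl cells by the interaction term of limma. *FURIN* went from 4791 and 4665 normalized counts to 11121.5 and 10329 with TGFβ in siControl cells and from 4879 and 5249.9 to 8403 and 7527 in siPHF13 cells. The difference of the log2 responses was -0.53 (standard error 0.10, adjusted p = 0.0349 from limma), which passed the threshold on p and not that on the fold. The adjusted p lay between 0.000606 (DESeq2) and 0.047 (replicate block) under the alternatives that kept all libraries. Leaving out single libraries gave values between 0.00192 and 0.326, and it was above 0.05 without any 1 of the siControl, siPHF13 or siControl + TGFβ libraries. No other gene of the Notch lists had an adjusted p under 0.05 for this term in limma, and *DLL1* was not tested.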

How the results depend on the processing

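With no threshold on the fold, the genes past the threshold on p were 5 of the 10 Notch genes and 31 of the 61 others after depletion without TGFβ (3 and 12 with it), 4 and 7 with TGFβ in siControl cells (1 and 4), 6 and 34 after depletion with TGFβ (2 and 17), 3 and 2 with TGFβ in siPHF13 cells (0 and 1), and 1 of the 61 for the interaction (0). Of all 13307 genes, 6308, 2114, 6712, 409 and 55 passed on p alone, in the same order of comparisons. With 1 library left out, the counts with TGFβ in siPHF13 cells lay between 0 and 1 for the 10 genes (*HES1*, without siPHF13 replicate 1) and between 0 and 1 for the others, and the interaction count of the others between 0 and 1 (*FURIN*, without siPHF13_TGFb replicate 1). The 10 genes include *DLL1* in each count, and the counts after depletion with TGFβ, the comparison the genes were selected on, are not read as tests. A pseudocount of 5, no minimum, a minimum mean of 100, TMM rescaling, edgeR and DESeq2 moved none of these 10 counts by over 1.5 times, nor did a fit of only the libraries compared for the 8 counts other than the interaction. Values near 0 changed sign without single libraries: *HEY1* after depletion without TGFβ (from -0.062 to 0.25), and with TGFβ in siPHF13 cells *DLL1* (from -0.056 to 0.24), *NOTCH1* (from -0.16 to 0.13), *NOTCH2* (from -0.058 to 0.16) and *MAML1* (from -0.075 to 0.23).

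With a replicate block the counts were 3 and 12, 1 and 4, 2 and 17, 0 and 1, and 0 and 0, as without it, and 0 calls of the 71 genes changed in any of the 5 comparisons. The difference of replicate 1 minus replicate 2 had correlations between groups from -0.089 to 0.050, so no effect shared by same-numbered libraries was seen. Whether same-numbered libraries were prepared together is not given in the sources used here, and these values cannot tell.

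With 2 libraries per group, changes within the fold threshold and those of low genes (*HEY1*, *NOTCH3*, *DTX4*) are the least certain.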
